A study of Mus musculus with 18 samples.

Results

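The glutathione S-transferase family was followed through 18 arrays of mouse liver and liver tumours. It was taken as all probe sets whose annotated gene symbol is Gsta2, Gsta3, Gsta4, Gstm1, Gstm2, Gstm3, Gstp1, Gstt1 or Gstk1, which makes 9 of the 19324 genes named on the array. These genes were listed by 15 probe sets, of which 14 were bright enough to be tested, that is above log2 4 on at least 3 of the 18 arrays. The exception was 1 of the 4 Gstm1 probe sets, 1425626_at, which ran between 2.29 and 4.14. The Gsta2 probe set 1421041_s_at also lists Gsta1 and Gm3776, so its signal is uncertain as a measure of Gsta2. Values are log2 signals per probe set, where 1 unit is a 2-fold change. Brightness differs between probe sets for technical reasons, so no level was set against that of another gene. Probe sets with the suffix _a_at, _s_at or _x_at can read several transcripts, and these genes have close relatives such as Gsta1 and Gstp2. The other Gsta2 probe set, 1421040_a_at, and those of Gstm1, Gstm3 and Gstp1 with such a suffix are therefore also uncertain, although each lists only 1 symbol.

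The samples came from male mice in a study of the intestinal microbiota and Tlr4, the lipopolysaccharide receptor, in the promotion of hepatocellular carcinoma. Normal liver (n = 3) was from untreated wild-type (WT) C3H/HeOuJ mice aged 15 weeks. WT tumours (n = 7) were lesions dissected at 54 weeks from C3H/HeOuJ mice given the liver carcinogen diethylnitrosamine (DEN) at 100 mg/kg in week 12. These mice also received 6 injections of the hepatotoxin CCl4, each 0.5 ml/kg, between weeks 13 and 23. Tlr4-mutant tumours (n = 5) had the same regimen in C3H/HeJ mice, which carry Tlr4P712H, and the mutant therefore differs from WT in substrain as well. Antibiotic tumours (n = 3) were from C3H/HeOuJ mice on the same regimen. From week 10 to week 54 their drinking water contained ampicillin, neomycin and metronidazole at 1 g/l each and vancomycin at 500 mg/l. The labels do not say that samples of a group were separate animals, and each p-value speaks for the scatter of these particular samples, part of which may be technical. Bulk tissue was measured, so fewer cells of a type and less RNA per cell cannot be told apart.

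Glutathione S-transferases join the thiol of glutathione to electrophilic compounds, among them activated carcinogens, drugs and products of lipid peroxidation. The conjugates are then exported from the cell and can be trimmed to mercapturates. Cytosolic members are grouped into classes by sequence, such as alpha (Gsta), mu (Gstm), pi (Gstp) and theta (Gstt). The kappa enzyme encoded by Gstk1 belongs to a separate lineage found in mitochondria and peroxisomes. Hepatocytes hold these enzymes in large amounts, and several of the genes are known to be induced through NRF2 at antioxidant response elements.

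Promoter windows were read for the genes that the results turn on. Gsta3, Gstp1 and Gstk1 each had a probe set that was lower in WT tumours than in normal liver. Gsta2, Gstm2 and Gstm3 varied most among the tumours. Each line gives the 250 bases before the annotated start, 5′ to 3′ on the strand of the gene, from RefSeq on GRCm38.p6. Capitals mark a match to 1 of the 4 motifs searched, and a window without capitals held none of them.
Gsta3, chr1:21240335-21240584, plus strand: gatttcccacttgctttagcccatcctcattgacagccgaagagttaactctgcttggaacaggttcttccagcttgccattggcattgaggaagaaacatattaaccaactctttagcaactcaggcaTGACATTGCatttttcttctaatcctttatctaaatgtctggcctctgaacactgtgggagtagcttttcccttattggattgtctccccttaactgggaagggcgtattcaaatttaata
Gstp1, chr19:4037913-4038162, minus strand: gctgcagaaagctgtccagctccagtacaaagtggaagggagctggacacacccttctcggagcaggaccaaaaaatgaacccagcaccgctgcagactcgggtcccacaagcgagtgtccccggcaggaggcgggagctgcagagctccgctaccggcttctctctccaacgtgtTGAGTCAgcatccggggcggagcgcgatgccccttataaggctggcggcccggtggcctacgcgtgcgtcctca
Gstk1, chr6:42245685-42245934, plus strand: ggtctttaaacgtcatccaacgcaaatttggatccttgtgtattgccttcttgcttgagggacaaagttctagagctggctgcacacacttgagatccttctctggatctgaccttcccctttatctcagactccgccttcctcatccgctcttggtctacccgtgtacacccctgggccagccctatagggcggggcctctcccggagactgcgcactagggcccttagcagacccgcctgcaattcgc
Gsta2, chr9:78347146-78347395, minus strand: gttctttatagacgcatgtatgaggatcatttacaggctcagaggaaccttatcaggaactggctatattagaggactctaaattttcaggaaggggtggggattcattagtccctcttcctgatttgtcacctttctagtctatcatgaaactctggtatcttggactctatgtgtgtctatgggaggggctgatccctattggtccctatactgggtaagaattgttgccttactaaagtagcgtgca
Gstm2, chr3:107986421-107986670, minus strand: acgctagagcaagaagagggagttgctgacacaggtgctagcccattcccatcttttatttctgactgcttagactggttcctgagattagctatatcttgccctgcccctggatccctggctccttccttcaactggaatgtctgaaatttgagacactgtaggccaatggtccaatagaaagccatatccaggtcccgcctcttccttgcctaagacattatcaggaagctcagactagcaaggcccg
Gstm3, chr3:107969175-107969424, minus strand: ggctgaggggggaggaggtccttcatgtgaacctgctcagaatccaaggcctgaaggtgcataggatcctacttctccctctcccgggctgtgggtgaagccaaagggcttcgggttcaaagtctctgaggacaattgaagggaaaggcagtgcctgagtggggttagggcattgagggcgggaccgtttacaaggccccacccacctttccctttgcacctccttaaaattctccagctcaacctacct
The motifs, searched on either strand, were the antioxidant response element core TGACNNNGC, the AP-1 site TGAGTCA and the TCF/LEF sites CTTTGAT and CTTTGTT. Gsta3 held the core as TGACATTGC, beginning at position -121 counted back from the end of the window. Gstp1 held the AP-1 site, beginning at position -74. The AP-1 site on 1 strand can lie inside the core on the other, but neither of these matches counted for both. Other forms of these elements were not searched, so a window without a match, or with only the AP-1 site, may still hold one. Among 32851 windows of the same length, 10.2% held the core, 4.46% the AP-1 site, 3.21% CTTTGAT and 5.03% CTTTGTT. A window was found for 8 of the 9 genes, as 9 windows because Gstm1 has 2. Only the Gsta3 and Gstp1 windows had a match, and a match is a run of letters, not evidence of binding. Gstm3, Gstm2 and Gstm1 lie next to each other in this order on chromosome 3. Gsta2 and Gsta4 are both on chromosome 9, where Gsta4 is next to Gsta1. Gstt1 lies between Gstt3 and Gstt4 on chromosome 10, and Gstp1 next to Gstp2 on chromosome 19. Gsta3 (chromosome 1) and Gstk1 (chromosome 6) have no transferase gene as a direct neighbour.

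The first question was how the family differed between tumours of WT mice and normal liver. Of the 14 tested probe sets, 3 were lower in WT tumours at an adjusted p under 0.05 (limma, Benjamini-Hochberg over 16663 probe sets), 0 were higher and 11 did not pass. Over all tested probe sets, 39.9% passed, 20.9% higher and 19% lower, so the family's share was not above the background. The 3 were a Gsta3 probe set, the Gstp1 probe set and the Gstk1 probe set. Their groups did not overlap, which was true in the lower direction of 18.3% of all tested probe sets. With each gene represented by its brightest probe set, 2 of the 9 genes passed (Gstp1 and Gstk1), against 39.1% of 9053 genes. The median difference over the 14 probe sets was -0.01, and over all probe sets 0.02.

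Gstk1, the kappa enzyme, gave signals of 10.57, 10.70 and 10.76 in the 3 normal livers. In WT tumours it ran from 8.90 to 10.15 with a median of 9.54. All 7 WT tumours therefore lay below every normal liver, and tumours 19, 20 and 17 were the lowest. The mean fell from 10.68 ± 0.10 (SD, n = 3) to 9.60 ± 0.48 (SD, n = 7), a difference of -1.08 ± 0.27 (SE), or 2.11-fold (limma adjusted p = 0.00624). The call was kept whichever array was left out, with adjusted p between 0.00377 and 0.0300.

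Gstk1 signals in the other tumours lay nearer to normal liver. The 5 mutant tumours gave 10.85, 10.17, 10.19, 9.91 and 10.64, and the antibiotic tumours 10.37, 9.90 and 10.81. The highest value of each set, 10.85 and 10.81, lay above every normal liver, and the lowest value of each lay below every normal liver. Against WT tumours the mutant tumours were 0.75 ± 0.23 (SE) higher in the mean, with an unadjusted p of 0.00519 and an adjusted limma p of 0.139. The antibiotic tumours were 0.76 ± 0.27 higher, with an unadjusted p of 0.0135 and an adjusted limma p of 0.179. Neither comparison passed, and both use the same 7 WT tumours.

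Gstp1, the pi enzyme and a strongly expressed protein of male mouse liver, was the steadier of the genes that passed. Its signal was 14.16, 14.18 and 14.24 in normal liver. WT tumours ran from 13.46 to 13.91 with a median of 13.80, and the mutant tumours gave 13.83, 13.67, 13.73, 13.33 and 13.93. Every WT and mutant tumour was below every normal liver. WT tumours fell by 0.45 on the log2 scale (13.74 ± 0.16 against 14.19 ± 0.04, SE 0.16, 1.37-fold, limma adjusted p = 0.0359). Antibiotic tumours gave 14.05, 13.91 and 13.27, also below normal liver, but with an adjusted limma p of 0.109. The WT call was lost when any 1 normal liver, WT tumour 16 or WT tumour 18 was left out, with adjusted p up to 0.109, and when WT tumours 17 and 19 were left out together (0.0557).

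Gsta3, an alpha enzyme known for detoxifying aflatoxin epoxide in mice, was read by 2 probe sets that gave different results. The signal of 1423437_at was 11.17, 11.05 and 11.16 in normal liver. In WT tumours it ran from 8.83 to 10.62 with a median of 10.48, and in the mutant tumours it was 10.57, 9.70, 10.07, 9.77 and 10.33. All 12 of these tumours lay below the normal livers. The antibiotic tumours gave 11.24, 10.52 and 11.15 and overlapped with normal liver. WT tumours fell by 1.07 on the log2 scale (10.05 ± 0.69 against 11.13 ± 0.07, SE 0.34, 2.11-fold, limma adjusted p = 0.0189). This call was lost when any 1 normal liver was left out, with adjusted p up to 0.0624.

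The brighter Gsta3 probe set, 1423436_at, gave 12.35, 12.49 and 12.69 in normal liver. In WT tumours it ran from 11.36 to 12.64 with a median of 12.46, so most of the tumours were within or near the normal range. Its means were 12.51 ± 0.17 (n = 3) and 12.27 ± 0.46 (n = 7), with a 95% interval of the difference from -0.85 to 0.36 (limma adjusted p = 0.510). On control probe sets for the ends of Gapdh, the 3' signal exceeded the 5' signal by 1.37 to 1.61 in normal livers and by 0.20 to 1.02 in tumours. For actin it was 3.59 to 4.20 against 1.85 to 2.79. A labelling spike, the dap transcript, read 10.2 to 10.5 in normal livers and 1.77 to 2.22 in tumours. The part of RNA quality and labelling in the 3 calls was not tested. Tissue, age and this array handling cannot be told apart in any comparison with normal liver.

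**Figure D1:**
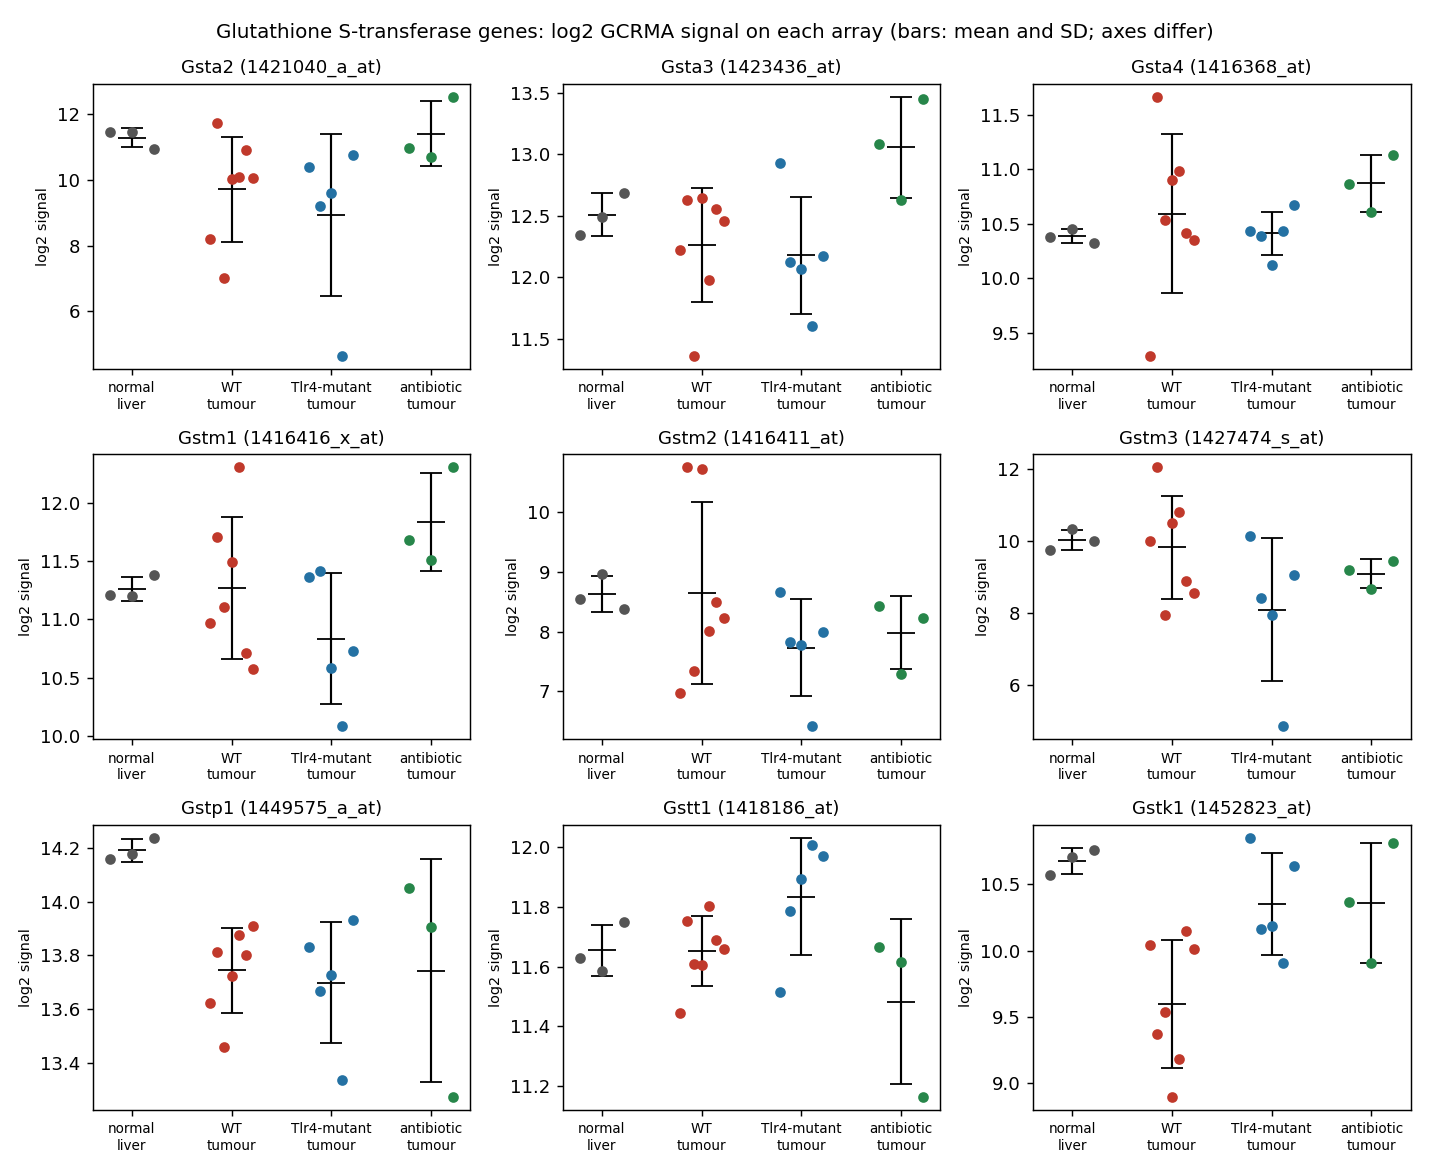
Log2 signal (y axis, a separate scale in each panel) of the brightest single-symbol probe set of each of the 9 genes, 1 point per array, for 3 normal livers, 7 WT, 5 Tlr4-mutant and 3 antibiotic tumours (x axis); bars are the mean and SD. The tumours of WT mice lie below all normal livers for Gstp1 (13.46 to 13.91 against 14.16 to 14.24) and Gstk1 (8.90 to 10.15 against 10.57 to 10.76), and 1 mutant tumour stands far below the others for Gsta2 (4.65).

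Mutant tumours were set against the same 3 normal livers, and 2 of the 14 probe sets passed, both lower, where 24.3% of all probe sets passed in either direction and 11.7% lower. The Gsta3 probe set 1423437_at fell by 1.04 on the log2 scale (10.09 ± 0.37 against 11.13 ± 0.07, SE 0.36, limma adjusted p = 0.0427). Gstp1 fell by 0.49 (13.70 ± 0.23 against 14.19 ± 0.04, SE 0.17, limma adjusted p = 0.0443). Both calls were lost when any 1 normal liver or mutant tumour 24, 25 or 26 was left out, with adjusted p up to 0.117 for Gsta3 and 0.125 for Gstp1. They were also lost with no filter on dim probe sets. In antibiotic tumours 0 of the 14 passed, where 18.4% of all probe sets did. Only Gstp1 had an unadjusted p under 0.05, against 33.8% of all probe sets. Groups did not overlap with normal liver for 4 probe sets in mutant tumours, all lower. In antibiotic tumours this held for 4 probe sets higher and 2 lower, with 3 arrays on each side. The share of all probe sets without overlap is not given for these comparisons, so such separations are described only.

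The remaining members did not pass in any of these comparisons with normal liver. Gstt1, a theta enzyme that acts on small halogenated hydrocarbons, was nearly level. It read 11.63, 11.59 and 11.75 in normal liver, 11.45 to 11.80 in WT tumours with a median of 11.66, and 11.52, 11.79, 11.89, 12.01 and 11.97 in mutant tumours. The antibiotic tumours gave 11.67, 11.62 and 11.16. The means of WT tumours and normal liver were both 11.65, with an interval of the difference from -0.28 to 0.28.

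Gsta4, an alpha enzyme that conjugates the lipid peroxidation product 4-hydroxynonenal, read 10.38, 10.45 and 10.33 in normal liver. WT tumours ran from 9.29 to 11.67 with a median of 10.54. They thus extended both below and above the normal livers, with tumour 16 the lowest and tumour 17 the highest of all. The mutant tumours gave 10.44, 10.38, 10.13, 10.44 and 10.68, and the antibiotic tumours 10.87, 10.61 and 11.13. The interval of the difference between WT tumours and normal liver was -0.49 to 0.90.

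Gsta2, an alpha enzyme with peroxidase activity toward lipid hydroperoxides, had a high and even level in normal liver and a wide range in tumours. The signal of 1421040_a_at was 11.46, 11.45 and 10.95 in normal liver. WT tumours ran from 7.01 (tumour 18) to 11.72 (tumour 17) with a median of 10.07, and the mutant tumours gave 10.39, 9.22, 9.62, 4.65 and 10.76. Antibiotic tumours gave 10.97, 10.70 and 12.54. All 5 mutant tumours lay below the normal livers, whereas WT and antibiotic tumours overlapped with them. The WT mean was 9.72 ± 1.61 against 11.29 ± 0.29 in normal liver, with an interval of the difference from -3.91 to 0.76 (limma adjusted p = 0.268). The second probe set, 1421041_s_at, gave another picture. It read 10.17, 10.06 and 9.95 in normal liver and 8.46 to 12.02 in WT tumours with a median of 9.45, so that WT tumours lay on either side of normal liver. All 3 antibiotic tumours, at 11.18, 11.48 and 11.88, lay above the normal livers without passing the test (limma adjusted p = 0.322), and all 5 mutant tumours lay below them.

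The mu genes followed the same pattern of even normal livers and uneven tumours. Gstm1, an abundant hepatic mu enzyme, read 11.21, 11.20 and 11.38 in normal liver on 1416416_x_at. WT tumours ran from 10.57 to 12.31 (tumour 20) with a median of 11.11, the mutant tumours gave 11.36, 11.41, 10.59, 10.08 and 10.72, and the antibiotic tumours 11.68, 11.51 and 12.31. The antibiotic tumours were thus above all normal livers on this probe set, without passing the test (limma adjusted p = 0.339). On 1425627_x_at they overlapped with normal liver. The mutant tumours reached lowest. The probe sets 1448330_at and 1425627_x_at also had their highest group mean in antibiotic and their lowest in mutant tumours.

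Gstm2, a mu enzyme, read 8.54, 8.96 and 8.39 in normal liver, and WT tumours ran from 6.98 to 10.76 with a median of 8.23. WT tumours 17 and 19, at 10.76 and 10.73, stood more than 2 units above the other 5 WT tumours, which ran from 6.98 to 8.49. Mutant tumours gave 8.67, 7.82, 7.77, 6.41 and 8.0, and antibiotic tumours 8.43, 7.29 and 8.23. Because of tumours 17 and 19 the WT mean of 8.65 ± 1.52 was nearly that of normal liver, 8.63 ± 0.30. Without them the difference was -0.82 (limma adjusted p = 0.157).

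Gstm3, a further mu enzyme, read 9.76, 10.33 and 10.01 in normal liver on 1427474_s_at. WT tumours ran from 7.96 (tumour 18) to 12.07 (tumour 17) with a median of 10.01. The mutant tumours gave 10.16, 8.40, 7.96, 4.84 and 9.07, and the antibiotic tumours 9.19, 8.66 and 9.45, all below normal liver. The dimmer probe set 1427473_at was above log2 4 on 10 of 18 arrays, and its highest value was again in WT tumour 17, at 7.28.

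The study also asked whether loss of Tlr4 signalling or of the microbiota changes the tumours. Between mutant and WT tumours 0 of the 14 probe sets passed (limma), where 0.39% of all probe sets did, and 4 of the 14 had an unadjusted p under 0.05, against 17.8% of all. Probe sets with such a p and a lower mean in mutant tumours were 3 of the 14, against 9.94% of all. The Gsta2 probe set 1421041_s_at gave 8.34 ± 1.72 in mutant and 10.05 ± 1.43 in WT tumours (difference -1.70, SE 0.72, limma adjusted p = 0.231). Gstm3 1427474_s_at gave 8.09 ± 1.99 and 9.83 ± 1.44 (difference -1.74, SE 0.78, adjusted p = 0.254). Gstm1 1425627_x_at gave 9.24 ± 0.47 and 9.90 ± 0.68 (difference -0.66, SE 0.29, adjusted p = 0.249). Without mutant tumour 26 these differences were -0.95, -0.93 and -0.50. The fourth was Gstk1, described above. Differences were negative for 11 of the 14 probe sets, against 51.7% of all.

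Between antibiotic and WT tumours 0 of the 14 passed (limma), where 0.552% of all probe sets did, and 3 had an unadjusted p under 0.05, against 17% of all. The 3 had higher means in antibiotic tumours, so that 3 of the 14 had such a p and a higher mean, against 6.69% of all. They were Gstk1 and the Gsta3 probe sets. The latter gave 13.06 ± 0.41 against 12.27 ± 0.46 (1423436_at, limma adjusted p = 0.174) and 10.97 ± 0.39 against 10.05 ± 0.69 (1423437_at, adjusted p = 0.183). The antibiotic values of 1423436_at, 13.09, 12.63 and 13.45, overlapped with the WT tumours at the lower end only.

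Mutant and antibiotic tumours were also compared directly. Of the 14 probe sets 0 passed (limma), where 0.21% of all did, and 8 had an unadjusted p under 0.05, against 10.5% of all. Differences were negative for 13 of the 14, against 48.9% of all, and Gstt1 was the exception. The groups did not overlap for 4 probe sets, all lower in mutant tumours, against 2.05% of all, namely the Gsta2 probe set 1421041_s_at and the 3 tested Gstm1 probe sets. The values of the first were 9.41, 8.89, 8.62, 5.34 and 9.45 in mutant tumours and 11.18, 11.48 and 11.88 in antibiotic tumours (difference -3.17, SE 0.89, unadjusted p = 0.00256, limma adjusted p = 0.233). Without mutant tumour 26 the difference was -2.42. Differences of the Gstm1 probe sets were -0.998, -0.95 and -1.06 (adjusted p from 0.340 to 0.372). The 14 probe sets come from 9 genes, some lie in 1 cluster, and several share transcripts, so they are not independent observations.

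**Figure D2:**
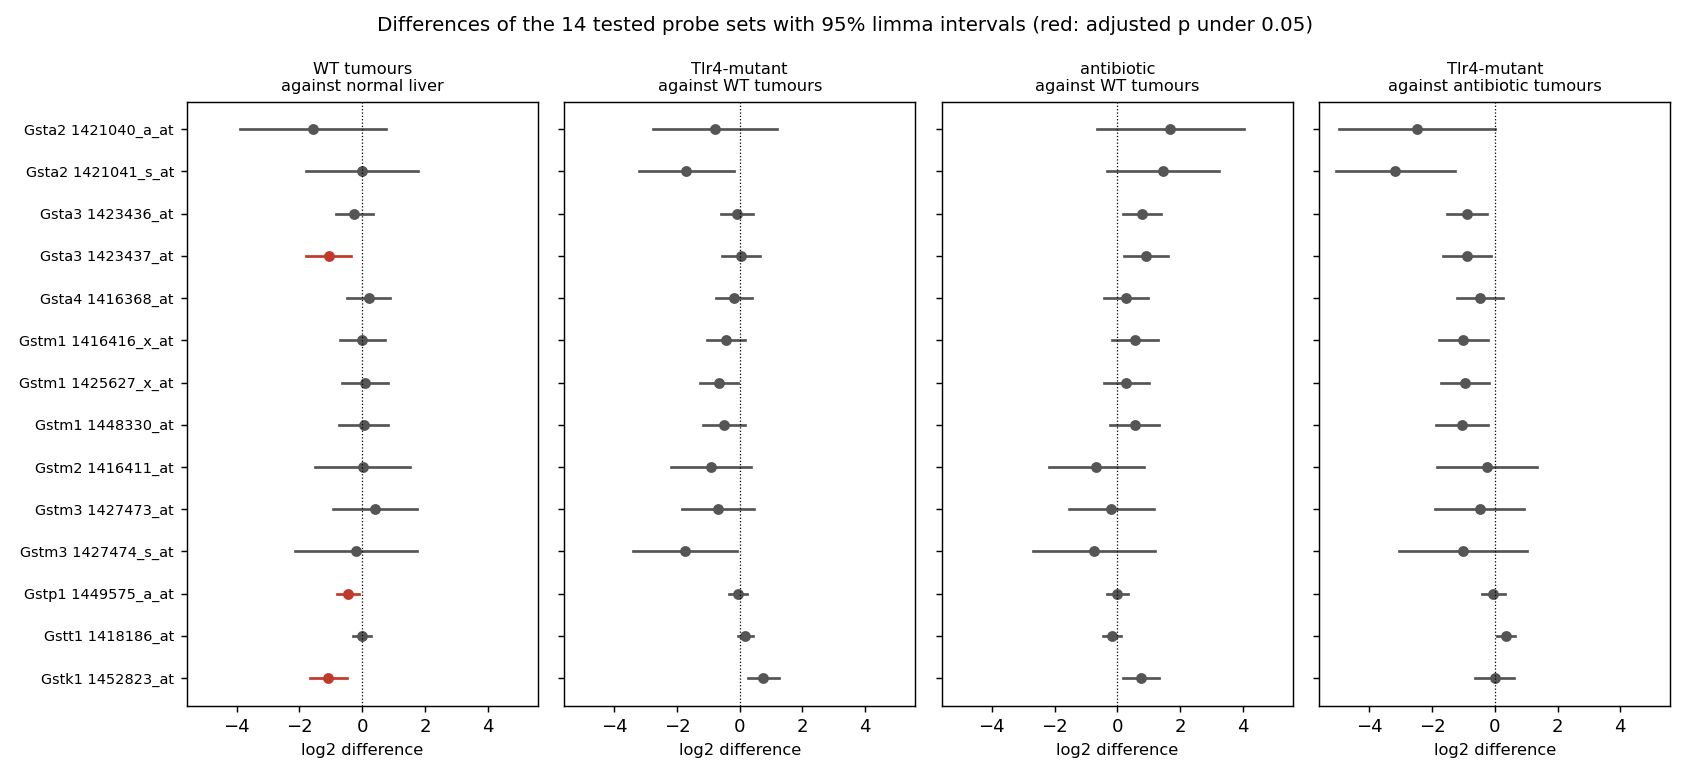
Log2 difference (x axis) of the 14 tested probe sets (y axis) in 4 comparisons, with 95% limma intervals; red marks an adjusted p under 0.05. Only Gsta3 1423437_at, Gstp1 and Gstk1 in WT tumours against normal liver are red, and 13 of the 14 differences between mutant and antibiotic tumours are below 0.

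The genes differed widely in their spread over the 15 tumours. The SD over the 15 tumours was 1.95 for Gsta2 1421040_a_at, larger than that of 99.2% of the 16663 tested probe sets, whose median SD was 0.35. Its lowest and highest tumours were 238-fold apart, and 46.3-fold without mutant tumour 26. Gstm3 1427474_s_at had an SD of 1.64 (above 98.3% of probe sets) and a 149-fold range, which was 17.3-fold without tumour 26, and Gstm2 an SD of 1.19 (above 95.5%) and a 20.3-fold range. Gstm1, Gsta3, Gsta4 and Gstk1 had SDs from 0.53 to 0.69 and ranges from 3.88-fold to 5.34-fold. At the other end stood Gstp1, with an SD of 0.22 that exceeded 18.1% of probe sets, and Gstt1, with 0.21 and 15.3%. Without tumour 26 the SDs of Gsta2, Gstm3 and Gstm2 were 1.39, 1.18 and 1.13, above 97.0%, 95.3% and 94.6% of probe sets. For Gstp1 and Gstt1 the tumours were 1.72-fold and 1.79-fold apart at most.

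**Figure D3:**
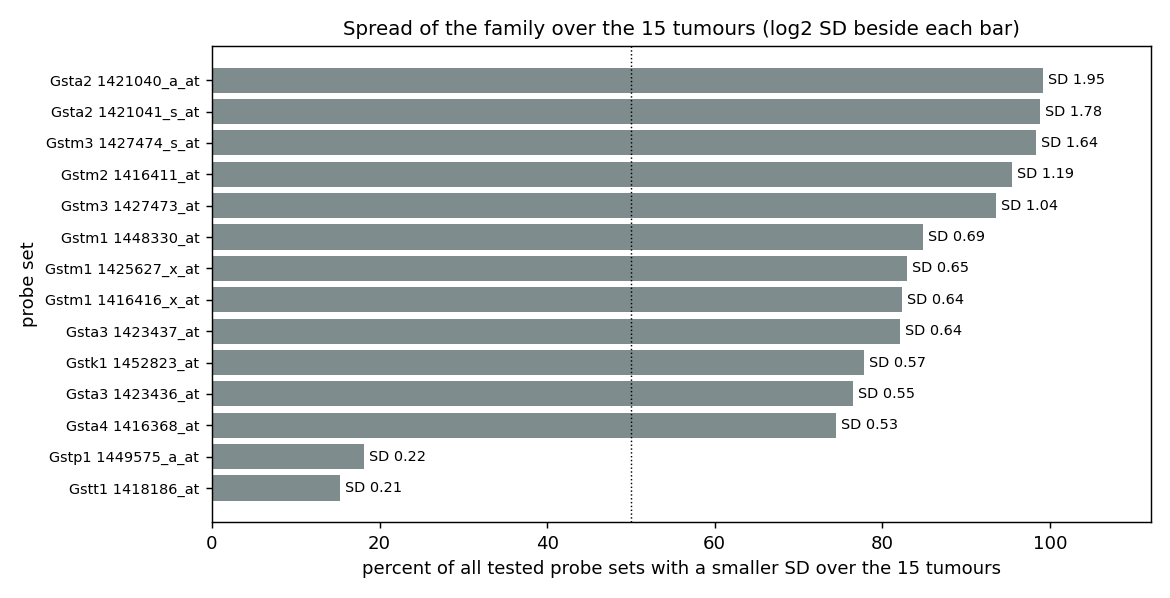
Share of all 16663 tested probe sets with a smaller SD over the 15 tumours (x axis, percent) for each of the 14 probe sets of the family (y axis); the log2 SD is written beside each bar and the dotted line marks the middle probe set. Gsta2 and Gstm3 lie near the top of the array (99.2% and 98.3%), Gstp1 and Gstt1 near the bottom (18.1% and 15.3%).

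Single tumours supplied the extremes, taken here on the brightest single-symbol probe set of each gene. Mutant tumour 26 was the lowest of the 15 for Gsta2 (4.65), Gstm1 (10.08), Gstm2 (6.41) and Gstm3 (4.84), and the highest for Gstt1 (12.01). WT tumour 17 was the highest for Gsta4, Gstm2 and Gstm3. Antibiotic tumour 30 was the highest for Gsta2 (12.54), Gsta3 (13.45) and Gstm1 (12.31) and the lowest for Gstp1 (13.27) and Gstt1 (11.16). Its Gstm1 value was level with WT tumour 20 (12.31), and the other probe sets of Gsta2, Gsta3 and Gstm1 had their highest value in other tumours. In tumour 26 Gsta4 (10.44) was inside the range of the other mutant tumours, and Gstk1 (9.91) and Gsta3 (11.60) were below it by less than 1 unit.

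Other genes measured in the same tumours were set beside these extremes, chosen after their values were seen. WT tumours 17 and 19, with the highest Gstm2, had the 2 highest signals of the 15 for 6 of 10 tested pericentral markers, among them Glul (glutamine synthetase, 12.73 and 13.14), Oat (13.30 and 13.75) and Rhbg (7.66 and 9.13). This was not so for Cyp2e1, Slc1a2, Aldh3a2 and Cyp2c29. The same tumours had the 2 lowest signals for 6 of 8 tested periportal markers, among them Cyp2f2 (2.92 and 3.58) and Hal (5.26 and 4.58), but not for Ass1 and Pck1. In the other 13 tumours Glul ran from 8.47 to 11.61 and Hal from 9.68 to 11.21. WT tumours 17 and 20 held the 2 highest values of the 15 for Gstm3 and of the 7 WT tumours for Gstm1. They were highest for the cystine transporter Slc7a11 (7.57 and 7.48) and the NRF2 target Srxn1 (10.42 and 10.59). Among the 13 tested NRF2 targets this also held for Txnrd1, Cbr1 and Cbr3. It was not so for Nqo1, Hmox1, Ephx1, Aox1, Ugdh, Akr1b8, Fth1 and Osgin1. Mutant tumour 26 had the lowest Aox1 (5.76), an oxidase. Its Nr1i3, the xenobiotic receptor CAR, was also low (4.11), but mutant tumour 24 was close to it (4.19).

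**Figure D4:**
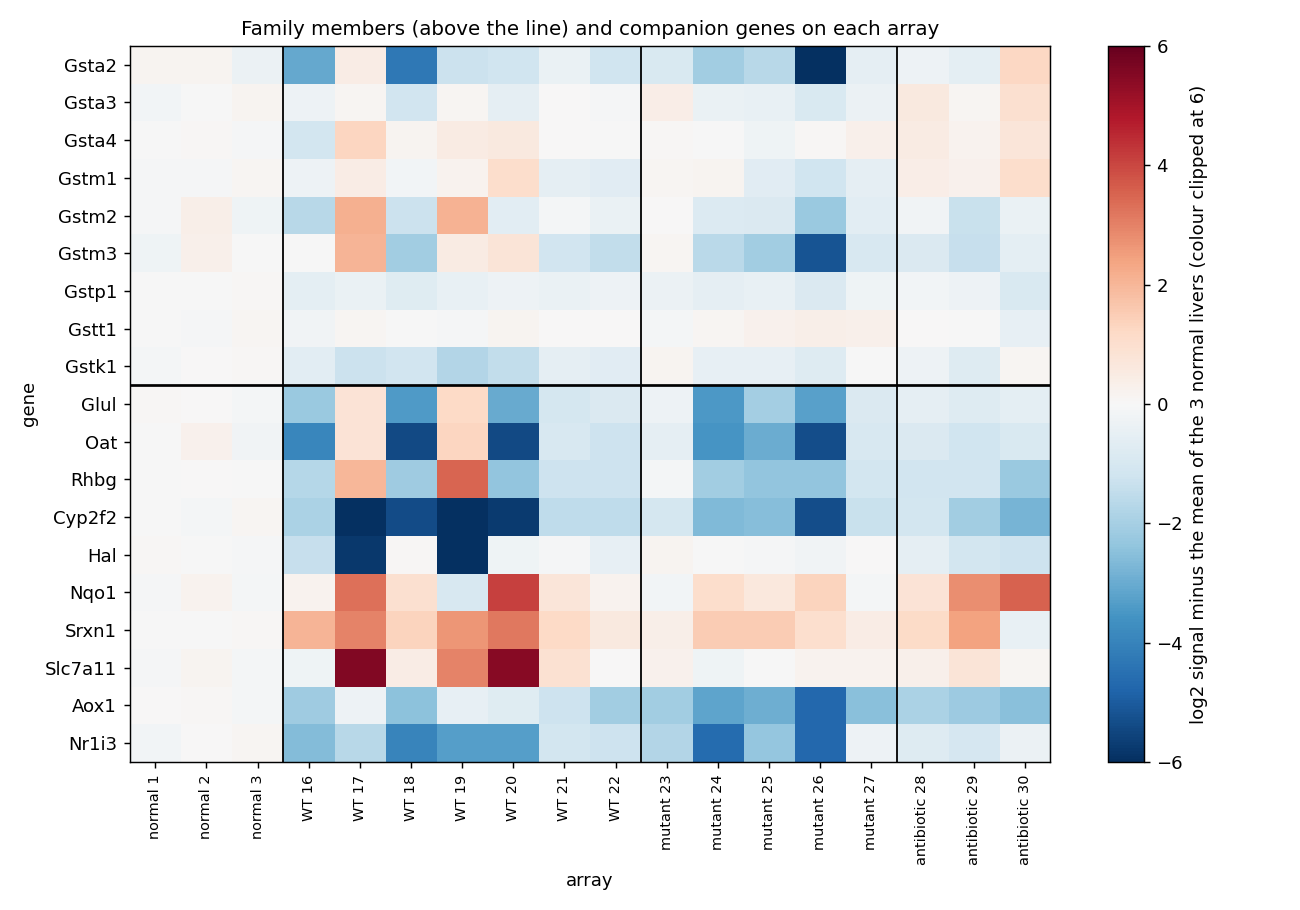
Log2 signal minus the mean of the 3 normal livers (colour, clipped at 6) for the 9 family genes (above the line) and the companion genes (below it, y axis) on the 18 arrays (x axis, split by group). WT tumours 17 and 19 stand out by high Gstm2 with high Glul, Oat and Rhbg and low Cyp2f2 and Hal, and mutant tumour 26 by low Gsta2 and Gstm3 with low Aox1.

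Members were compared with each other over the 15 tumours, in 36 pairs of genes by their brightest single-symbol probe sets. The tumour groups were pooled and permuted together, so differences between groups enter r, rho and their p-values. Gsta2 and Gsta3, for example, both had their highest group mean in antibiotic tumours (11.40 and 13.06). Gsta2 and Gsta3 had the highest Pearson r, 0.805 (permutation p = 0.00021, adjusted 0.00756 over the pairs) with Spearman rho = 0.732 (permutation p = 0.00275, adjusted 0.0495). Without the 2 tumours farthest from the median of Gsta2, r was 0.704, and within the 7 WT tumours it was 0.820. Gsta4 and Gstm1 had the highest Spearman rho, 0.761 (permutation p = 0.00155, adjusted 0.0495), with Pearson r = 0.573 (permutation p = 0.0243, adjusted 0.0972). Their r was 0.785 without WT tumours 16 and 17, the 2 farthest from the median of Gsta4. Gsta2 and Gstm3 had r = 0.707, but r was 0.216 without mutant tumour 26 and WT tumour 18, so r over the 15 tumours leaned on those samples. Without tumour 26 alone r was 0.384, and within the 7 WT tumours it was 0.60. Gstm2 and Gstm3, neighbours on chromosome 3, had r = 0.727 and rho = 0.646, and r = 0.622 without WT tumours 17 and 19. Of the 36 pairs 25 had a positive r.

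The genes most like each member were sought among 9052 genes over the same 15 tumours by Pearson r, as a description without a test. Arrays of different groups enter this measure together. For Gsta2 they were Rdh16 (r = 0.894), Xdh (0.843) and Cyp2c50 (0.825), a retinol dehydrogenase, xanthine dehydrogenase and a cytochrome P450. For Gsta3 they were Pdilt (0.873), Dpp4 (0.854) and Cyp2c37 (0.853). For Gsta4 they were Abcb1a (0.853), Fam214b (0.798) and Wasl (0.797), and for Gstm1 Dstn (0.833), Enox2 (0.803) and Mxd4 (0.798). For Gstm2 they were Tspan12 (0.906), Mafg (0.905), which encodes a small Maf partner of NRF2, and Creld1 (0.898). By rank these were lower, with Spearman rho of 0.764, 0.754 and 0.782, and Rdh16 with Gsta2 had rho = 0.75. Mafg was, like Gstm2, highest of the tumours in WT tumours 17 and 19 (9.68 and 9.57), so single tumours weigh on such r. For Gstm3 they were Aox1 (0.893), Ikbkg (0.888) and Entpd5 (0.884). Gstk1 had the closest of all, Pipox (0.955), S100a1 (0.952) and Cox8a (0.948), a peroxisomal oxidase, a calcium-binding protein and a subunit of cytochrome c oxidase. Gstp1 and Gstt1 varied too little, with an SD under 0.5, to be ranked.

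The rest of the glutathione pathway was counted by genes, each by its brightest single-symbol probe set, in WT tumours against normal liver, where 39.1% of all genes passed. Of 12 other tested glutathione transferase genes 0 were higher and 1 lower, the microsomal enzyme Mgst1 (13.87 ± 0.12 against 14.21 ± 0.07, difference -0.34, limma adjusted p = 0.0145), with a median of -0.05. In mutant tumours against normal liver 1 of the 12 was higher and 1 lower, where 22.9% of all genes passed. Gstm5 was the higher gene (9.45 ± 0.26 against 8.51 ± 0.13, limma adjusted p = 0.0481), and Mgst1 was again the lower one. Of the 9 family genes and the 12 others, no further gene passed as higher in any of the 6 comparisons. Over all genes the median difference in WT tumours was -0.01.

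Genes of glutathione synthesis, recycling and breakdown gave 2 higher and 8 lower of 19, with a median of -0.50. Ggt6 and Oplah, of the gamma-glutamyl cycle, fell by 1.55 and 1.52, and the glutaredoxin Glrx fell by 1.52. Ggct, the gamma-glutamylcyclotransferase, rose by 1.39. The exporters and mercapturate enzymes gave 2 higher and 6 lower of 11, with a median of -1.20. Abcc4, an efflux pump, was below log2 4 in all normal livers and at 7.06 ± 2.17 in WT tumours, at least 8.36-fold higher when taken against that limit. Abcc6 fell by 3.15, and Nat8f1 and Nat8f2, related to the acetylase of the mercapturate step, fell by 1.74 and 1.70. Peroxidases and peroxiredoxins gave 1 higher (Gpx4, by 0.49) and 1 lower (Gpx1, fell by 0.84) of 7, with a median of 0.37. The limma adjusted p of the genes named here ran from 0.000485 to 0.0429.

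In WT tumours against normal liver, where 39.1% of all genes passed, 3 of 16 regulators of these genes were higher and 4 lower. Their median difference was -0.18. Maff, a small Maf protein, rose by 2.28, and Nr1i3, Ppara and Cebpa, transcription factors of hepatocyte metabolism, fell by 2.46, 1.29 and 1.19. Of 13 NRF2 target genes outside the family 3 were higher and 1 lower, with a median of 0.77. Srxn1, which repairs peroxiredoxins, rose by 1.99, and Osgin1 rose by 0.86. Akr1b8, below log2 4 in normal liver, was at least 2.19-fold higher by the same rule, and Aox1 fell by 1.36. In the 3 comparisons between tumour groups 0 genes of these lists passed (limma), where 0.309% of all genes did for mutant against WT, 0.188% for antibiotic against WT and 0.232% for mutant against antibiotic tumours.

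Markers of cell types in the tissue were measured on the same arrays. The mean signal of 9 hepatocyte markers lay between 13.37 and 13.47 in normal livers and between 11.99 and 13.50 in tumours, and 1 of the 9 (Hpd) fell in WT tumours. Of 8 periportal markers 3 passed as lower (Cyp2f2, Ass1 and Pck1), with a median difference of -1.53 and 7 of the 8 negative. Of 10 pericentral markers 1 passed as lower (Cyp2c29), with a median of -1.14 and 9 of the 10 negative. In the other cell type lists, 2 of 3 cholangiocyte or progenitor markers rose (Tspan8 and Prom1) and 3 of 9 of macrophages (Lyz2, Cd68 and C1qb). Of stellate cells 1 of 7 rose (Reln), of neutrophils 2 of 2 (S100a8 and S100a9) and of endothelium 0 of 7. Over all tested probe sets 20.9% passed as higher and 19% as lower. The mean signal of the cholangiocyte or progenitor markers ran from 2.87 to 3.44 in normal livers and from 6.61 to 9.52 in tumours. Krt19, Krt7, Epcam and Cftr were too dim to be tested. The neutrophil mean ran from 2.54 to 2.75 in normal livers and from 3.34 to 8.18 in tumours. Of T and B cells, Cd3e, Cd3g, Cd8a, Cd4, Cd79a and Ms4a1 were too dim. With both means below log2 4 in normal livers, these lists were tested largely through the tumours, and a fall could hardly be seen. The macrophage mean ran from 5.64 to 6.93 in normal livers and from 5.37 to 8.69 in tumours. The part of these cell types in the lower signals of Gsta3, Gstp1 and Gstk1 was not tested. The median signal of the tested probe sets was 6.69 to 6.85 on the 18 arrays. The number of arrays, 3 to 7 in a group, limits the precision.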

How the data were processed

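Expression was measured on 18 Affymetrix mouse arrays, from 100 ng of total RNA labelled with a 3' IVT kit, per the labels' protocols. The authors deposited log2 values summarised with GCRMA, per the submitters' processing notes; the version is not given in the sources used here. Symbols came from the platform annotation, which names 1 gene for 34945 of 45101 probe sets, several for 932 and none for 9160, besides 64 controls.

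Probe sets above log2 4 on at least 3 arrays were kept (16663, for 9053 genes by the brightest single-symbol probe set). The 4 group means were modelled jointly on the 18 arrays (limma 3.58.1, R 4.3.3), with Benjamini-Hochberg adjustment over the kept probe sets. For genes, the probe set's own adjusted p was used. Of 6 pairwise comparisons, all two-sided, an adjusted p under 0.05 counted as changed. A fold against a group wholly below log2 4 was taken against that limit. The procedure was tested on simulated data. Groups were taken from the sample titles and source names.

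The members, gene lists and motifs were chosen with earlier results of these data known. All members are described. Of each other list at most 4 genes are named, those past 0.05 with the largest difference in WT tumours against normal liver. For members with an SD of at least 0.5 the 3 genes of highest r are named. Genes named outside these rules were chosen after their values were seen, including Gstm5. Alternatives were other filters, summaries, normalizations, variance models, weights, samples and thresholds. Promoter windows are from RefSeq; protein sequences were not used here. Figures were drawn with matplotlib 3.10.9.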

Additional observations from a re-analysis of the deposited data

Results flagged for a closer look

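Among 28 sets of values, the 14 probe sets in the 7 WT and the 5 mutant tumours, 3 had an end value separated from the rest by an unusually wide gap, where chance gives about 1 in 20. Mutant tumour 26 read 4.65 for Gsta2 on 1421040_a_at, with the nearest mutant tumour at 9.22. The same tumour read 5.34 on the second Gsta2 probe set, 1421041_s_at, with the nearest at 8.62. These probe sets measure 1 gene and share 1 array, so they are not independent. WT tumour 17 read 7.28 for Gstm3 on 1427473_at, with the nearest WT tumour at 5.21. The mutant group's Gsta2 difference against WT tumours on 1421041_s_at was -0.95 without tumour 26, against -1.70 with all arrays.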

How the results depend on the processing

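The count of family probe sets lower in WT tumours than in normal liver was 3. It was 2 with 1 probe set per gene, with probe sets averaged per gene, without _s_at, _x_at and _a_at probe sets, with a 2-fold minimum and without WT tumours 17 and 19. It was 1 at an adjusted p under 0.01 and ran from 1 to 3 when 1 array was left out. For mutant tumours against normal liver the count was 2. It was 0 with no filter and at an adjusted p under 0.01. It was 1 under the same 5 settings and on median-centred arrays, and 5 with array weights. It ran from 0 to 2 when 1 array was left out. Why these counts moved was not tested, except that some settings test fewer probe sets per gene or ask for more. For antibiotic tumours against normal liver the count was 0, was 1 with only the 2 groups fitted (Gsta2 1421041_s_at), and ran from 0 to 1 when 1 array was left out (Gstp1 passed without antibiotic tumour 28). The 3 comparisons between tumour groups gave 0 under every setting tried. Among the printed differences only 3 changed sign, each with an interval that spans 0, all for WT tumours against normal liver. Gstm2, at 0.02, became -0.0395 on median-centred arrays, -0.0168 with quantile normalization, -0.36 with array weights and -0.82 without WT tumours 17 and 19, and ran from -0.33 to 0.30 when 1 array was left out. Gstt1, near 0, was 0.0182 with quantile normalization and 0.0061 with array weights, and ran from -0.0366 to 0.0447. Gsta4 was -0.0707 without WT tumours 17 and 19. Of 58 further differences, recomputed in 1193 values, 67 changed sign and 4 passed 0.05, 3 of them with array weights. The ranges without mutant tumour 26 were added after seeing the data. No paired analysis was possible because the groups share no replicate numbers. Signal over background limits the dimmer Gstm1 and Gstm3 probe sets.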
